A study of Drosophila melanogaster with 3 samples.

Results

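DSXM-only peaks are regions of the fly genome that were called as occupied by the male isoform of Doublesex and that met no peak of the female isoform. Doublesex (DSX) is a transcription factor that carries out the last step of sex determination in most somatic tissues of Drosophila. Its transcript is spliced into DSXM in males and DSXF in females, proteins that bind DNA through the same N-terminal domain and have different C-terminal ends. The factor is known for its control of sexually dimorphic genes such as those of the yolk proteins.

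The members were chosen from measured positions: a DSXM peak was kept where no DSXF peak overlapped it by 1 bp or more, on 2L, 2R, 3L, 3R, X and 4 only. This gave 786 peaks out of 5347 DSXM peaks on these sequences, which is 14.7% of the list, and out of 11890 peaks of both isoforms in all. The DSXM peaks that overlapped a DSXF peak numbered 4561 and are called shared here. On the female side 2028 of 6494 DSXF peaks (31.2%) met no DSXM peak and are called DSXF-only.

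The cells were S2, a macrophage-like line derived from Drosophila embryos. The DSXM immunoprecipitate came from cells carrying the plasmid pMT5.1- DSXM-V5-His B and the DSXF immunoprecipitate from cells carrying pMT5.1- DSXF -V5-His B, both with pCoBlast as the selection plasmid, and both were pulled down with an antibody against the V5 tag. Input DNA came from cells without transfection. DSXM and DSXF were each pooled from 3 biological replicates (3 sequence runs for DSXM, 4 for DSXF), and input from 2. Each isoform was thus a tagged protein from its own plasmid, in separately transfected cells of the same line. A V5 immunoprecipitate of cells without a plasmid was not analysed here. Each isoform is 1 list of positions with no height, fold enrichment or p-value, and its read depth is unknown. Pooling hides how many replicates carried a given peak, and without depth a region that DSXF occupied below the calling threshold cannot be told apart from one without DSXF. No test between the isoforms was possible, and the 95% intervals below cover counting error over peaks in these lists only. All values describe the members, and since the absence of a DSXF peak defined them, none is a test of that absence. Positions are on dm3, counted from 1. No gene is named and no sequence is shown, because a genome and gene positions of that build were not used here.

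Some members and some shared peaks stood near the limit of the rule. The member closest to a DSXF peak lay on 3L from 21028337 to 21030100 and was separated from it by 8 bp. The next members were those on 3R from 27562341 to 27563359 with a gap of 15 bp, on 3R from 16738057 to 16739352 with 19 bp, on 2L from 7146366 to 7147462 with 22 bp and on 3L from 710227 to 711201 with 24 bp. On the other side of the rule, the shared DSXM peak with the fewest overlapping bases was on 2R from 6439561 to 6440752 and overlapped by 5 bp, or 0.419% of its width. It was followed by peaks on X from 13719565 to 13720532 with 13 bp, on 3R from 7913758 to 7915116 with 54 bp, on 3R from 14807936 to 14808946 with 68 bp and on 2R from 2556050 to 2557044 with 74 bp. Gaps of up to 100 bp were found at 18 members, and overlaps under 100 bp at 10 shared peaks. At 500 bp these numbers were 79 members and 45 shared peaks. Requiring a reciprocal overlap of 50% in place of 1 bp gave 1161 members, and counting DSXF peaks within 2000 bp as partners gave 511.

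DSXM-only peaks were mostly narrow and alike in width. Their median width was 1228 bp (95% binomial interval of the median 1196 to 1257 bp), with quartiles of 1061 and 1529.75 bp. Shared DSXM peaks had a median of 1680 bp (1647 to 1713 bp), with quartiles of 1243 and 2541 bp, and DSXF-only peaks one of 1141 bp (1128 to 1156 bp). Together the members covered 1.07 Mb, which is 9.96% of the base pairs in DSXM peaks on these sequences. Between 1 and 1.5 kb lay 474 members (60.3%), and 104 (13.2%) were under 1 kb. Only 69 members (8.78%) were 2 kb or wider, against 1719 shared peaks (37.7%). The narrowest members were 2 peaks of 310 bp, on 3L from 12787701 to 12788010 and on 2L from 5525679 to 5525988. A wide peak has more room to meet a partner, so width and membership are not independent. The part of this in the difference in width was not tested.

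Read by width, the members made up 33.9% (28.8 to 39.3%) of DSXM peaks under 1 kb and 22.3% (20.5 to 24.1%) of those between 1 and 1.5 kb. The share was 12.4% between 1.5 and 2 kb, 6.39% between 2 and 3 kb and 0.635% at 3 kb or more, where 5 of 787 peaks were members.

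**Figure D1:**
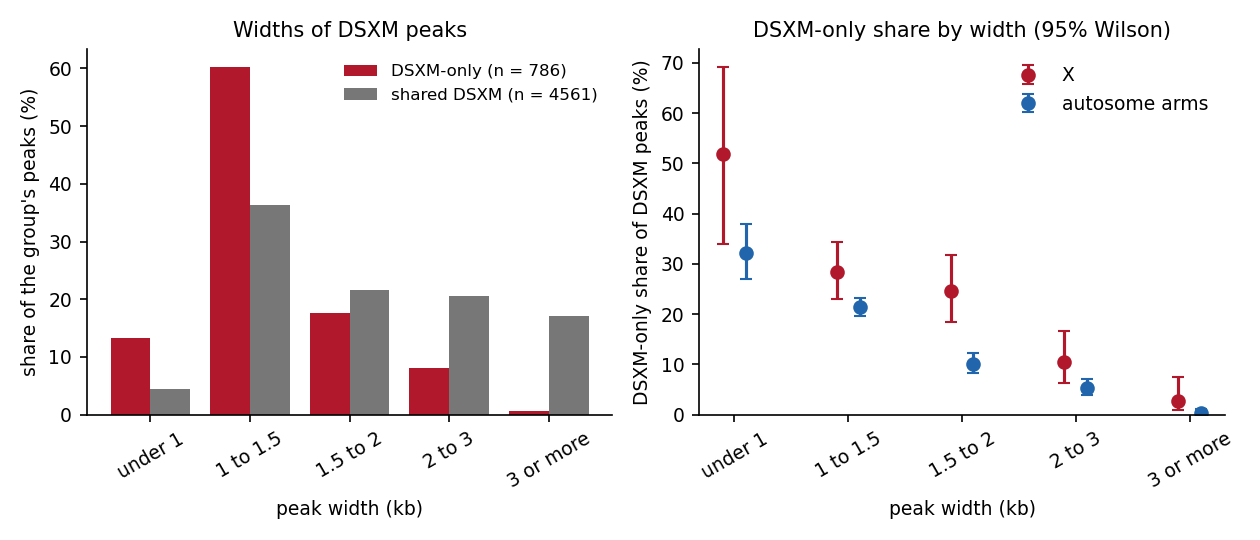
Left, share of DSXM-only (red) and shared (grey) DSXM peaks in each class of peak width in kb; right, percentage of DSXM peaks of a width class that were DSXM-only on X (red) and on the 4 autosome arms (blue), with 95% Wilson intervals. Members gather between 1 and 1.5 kb (60.3% of them), and the DSXM-only share falls with width on X and on the autosome arms.

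The 5 members of 3 kb or more were also the 5 widest, and they differed in their surroundings. The widest, on X from 17636256 to 17640472, measured 4.22 kb and stood 4.80 kb from a DSXF peak and 4.50 kb from another DSXM peak. The member of 3.33 kb on 3R from 21697540 to 21700874 was only 0.939 kb from a DSXF peak of 2.54 kb, which itself was shared. The member on 2L from 4991340 to 4994556 (3.22 kb) was likewise 1.80 kb from a shared DSXF peak. The member on X from 16277228 to 16280525 (3.30 kb) was instead 32.4 kb from any DSXF peak, and the one on X from 10656360 to 10659532 (3.17 kb) was 4.40 kb from one. The widest members on the remaining sequences were 2.88 kb on 4 (149116 to 151992), 2.63 kb on 3L (11489266 to 11491894) and 2.50 kb on 2R (17086897 to 17089396). Wide members thus occurred both beside shared regions and far from them.

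The members were spread over the 4 autosome arms at nearly the same share of the DSXM list. On 3R 201 of 1379 DSXM peaks were members (14.6%, 95% Wilson interval 12.8 to 16.5%), on 2R 138 of 1000 (13.8%, 11.8 to 16.1%), on 3L 157 of 1198 (13.1%, 11.3 to 15.1%) and on 2L 136 of 1042 (13.1%, 11.1 to 15.2%). The arms' intervals overlapped throughout, and all of them held the 14.7% of the whole list. On X the share was 20.4% (17.6 to 23.7%), with 138 of 675 peaks, and on the small chromosome 4, which is largely packed as heterochromatin, it was 30.2% (19.5 to 43.5%), with 16 of 53. Both intervals lay above 14.7%. A higher share on X was not particular to the members. DSXF-only peaks were 36.4% (33.2 to 39.7%) of DSXF peaks on X and 30.5% (29.3 to 31.7%) on the autosome arms. On chromosome 4 they were 25.5% (15.5 to 38.9%), with 13 of 51.

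In density, X was within the range of the autosome arms. It held 6.20 members per Mb, against 6.55 per Mb on the autosome arms, where single arms ranged from 5.93 on 2L to 7.21 on 3R. What was sparser on X were the shared DSXM peaks, at 24.1 per Mb against 41.4 per Mb on the autosome arms, and the DSXF peaks, at 37.5 against 58.2 per Mb. The part of these densities in the share on X was not tested. Chromosome 4 differed in the density of the members as well, with 12.8 members per Mb, although its shared DSXM peaks (29.6 per Mb) and its DSXF peaks (40.9 per Mb) were between those of X and of the autosome arms. Densities were taken over the span between the outermost peaks of a sequence in both lists, which was only 1.25 Mb for chromosome 4.

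**Figure D2:**
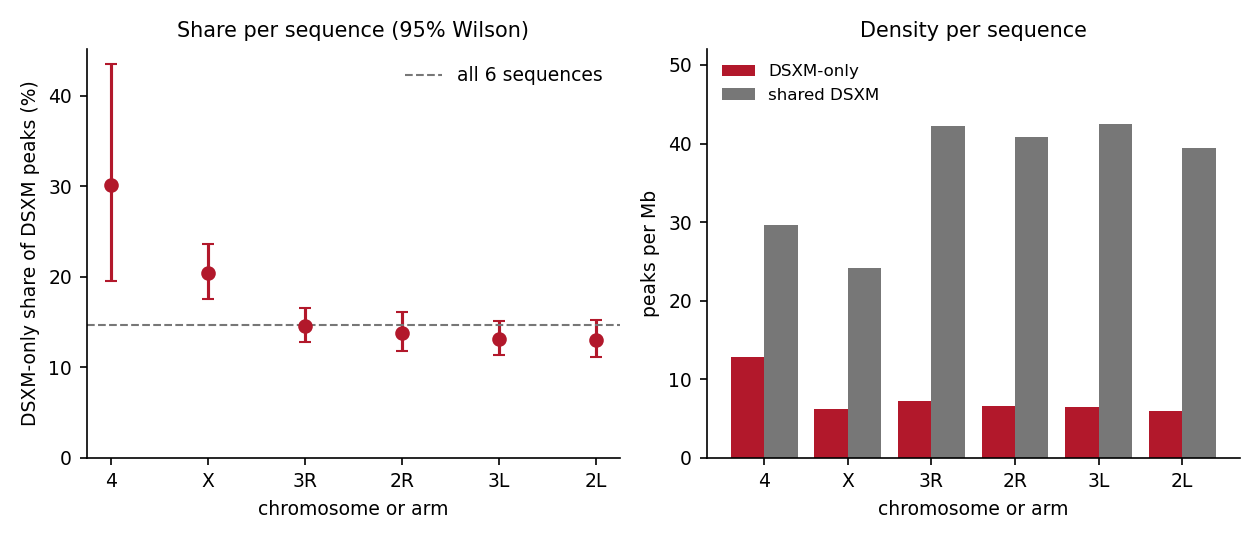
Left, percentage of DSXM peaks that were DSXM-only on each chromosome or arm, with 95% Wilson intervals and the 14.7% of all 6 sequences as a dashed line; right, DSXM-only (red) and shared DSXM (grey) peaks per Mb. The share is highest on 4 and X, whereas the density of members on X (6.20 per Mb) is within the range of the autosome arms and that of shared peaks is the lowest.

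Members on X were also wider and farther from their neighbours. Their median width was 1323.5 bp (1246 to 1494 bp) on X, against 1210.5 bp (1177 to 1237 bp) on the autosome arms. Shared DSXM peaks showed the same order, with medians of 1815 bp on X and 1656 bp on the autosome arms. The share of members was higher on X than on the autosome arms in each of the 5 width classes, for instance 28.3% (23.0 to 34.3%) against 21.3% (19.5 to 23.3%) between 1 and 1.5 kb and 24.5% (18.5 to 31.8%) against 10.1% (8.35 to 12.2%) between 1.5 and 2 kb. The intervals overlapped under 1 kb, between 1 and 1.5 kb, between 2 and 3 kb and at 3 kb or more. The median gap to a DSXF peak was 6700.5 bp (4397 to 9664 bp) for members on X and 3227.5 bp (2730 to 3813 bp) for those on the autosome arms. Wider spacing on X was not particular to the members. Shared DSXM peaks had a median gap to the nearest other DSXM peak of 3500 bp on X and 2736 bp on the autosome arms. For DSXF-only peaks the median gap to a DSXM peak was 8555.5 bp on X and 4535 bp on the autosome arms.

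Along X the share of members was lowest at the telomere and highest at the centromere. In the 5 equal parts of the chromosome, counted from the telomere, members were 17 of 111 DSXM peaks (15.3%), 25 of 136 (18.4%), 34 of 172 (19.8%), 37 of 166 (22.3%) and 25 of 90 (27.8%). The intervals of the first part (9.79 to 23.2%) and the last (19.6 to 37.8%) overlapped. On the autosome arms together the same parts gave 10.6%, 16.0%, 14.2%, 13.7% and 13.6%. There the part next to the telomere had the lowest share (8.80 to 12.8%), and its interval lay apart only from that of the part beside it (13.8 to 18.4%) and overlapped the other 3. On single arms the telomeric part had 8.39% on 3L, 8.82% on 2L, 12.1% on 3R and 14.3% on 2R, so the low value came from 3L and 2L foremost.

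**Figure D3:**
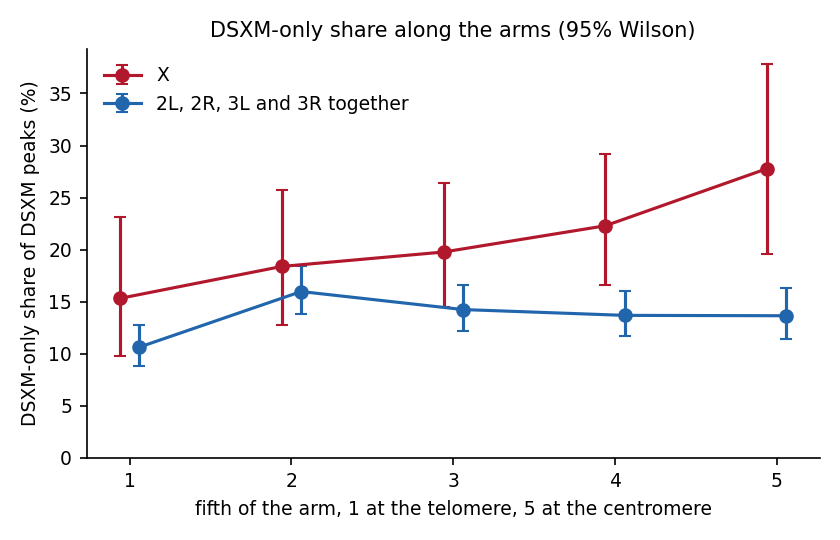
Percentage of DSXM peaks that were DSXM-only in each of 5 equal parts of the mapped stretch, from the telomere (1) to the centromere (5), for X (red) and for 2L, 2R, 3L and 3R together (blue), with 95% Wilson intervals. The points for X go from 15.3% to 27.8% with overlapping intervals, and those of the autosome arms stay between 10.6% and 16.0%.

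The gap from members to DSXF peaks varied widely. The median gap from a member to the nearest DSXF peak was 3724 bp (3226 to 4314 bp), with quartiles of 1336.5 and 10097.75 bp. It depended on the rule for a partner and was 1442 bp where a partner needed 50% reciprocal overlap and 7138 bp where a DSXF peak within 2000 bp also counted as one. Gaps of up to 500 bp were found at 79 members (10.1%), gaps over 500 and up to 2000 bp at 196 (24.9%), and gaps over 2000 and up to 10000 bp at 312 (39.7%). The remaining 199 members (25.3%, 22.4 to 28.5%) were over 10000 bp from any DSXF peak, and 15 of them (1.91%) over 50000 bp. Among DSXF-only peaks, 663 (32.7%, 30.7 to 34.8%) were over 10000 bp from any DSXM peak. The DSXM list that those distances refer to is the shorter one, so the shares are not on an equal footing.

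Median widths were close at all distances from DSXF. The median width was 1195 bp (1150 to 1248 bp) for members within 2000 bp of a DSXF peak, 1253.5 bp (1217 to 1298 bp) for those over 2000 and up to 10000 bp away, and 1210 bp (1148 to 1306 bp) for those beyond 10000 bp. These intervals overlapped. The share on X was higher among the more distant members. X held 34 of the 275 nearest members (12.4%, 8.98 to 16.8%), 50 of the 312 at middle distance (16.0%, 12.4 to 20.5%) and 54 of the 199 farthest (27.1%, 21.4 to 33.7%). The sparser DSXF peaks on X moved with this order, and their part in it was not tested.

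The DSXF peak nearest to a member was in most cases a shared one. For 225 of 786 members (28.6%, 25.6 to 31.9%) it was a DSXF-only peak, close to the 31.2% of DSXF-only peaks in the DSXF list as a whole. Of the 275 members within 2000 bp of a DSXF peak, 73 (26.5%, 21.7 to 32.1%) had a DSXF-only peak as the nearest. Each of them was paired with that DSXF-only peak. A DSXF-only peak could enter with several members, and another member could lie within a pair. In these pairs the gap had a median of 978 bp and the centres were a median of 2218.5 bp apart. The DSXM-only peak and the DSXF-only peak were alike in width there, with medians of 1136 bp and 1139 bp, and the DSXM-only peak was the wider in 35 of the 73. The pair on 3R, a DSXM-only peak from 27562341 to 27563359 and a DSXF-only peak from 27563375 to 27564688, and the pair on 2L, a DSXM-only peak from 7146366 to 7147462 and a DSXF-only peak from 7145130 to 7146343, were the closest of this kind among the named members.

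Within the DSXM list, members were more scattered than shared peaks. The gap to the nearest other DSXM peak had a median of 4173 bp (3682 to 4802 bp) for members and 2819 bp (2632 to 2939 bp) for shared DSXM peaks. For members it was 7231 bp when DSXF peaks within 2000 bp counted as partners. Within 500 bp of another DSXM peak lay 84 members (10.7%, 8.72 to 13.0%), against 685 shared peaks (15.0%, 14.0 to 16.1%). Of the members, 58 (7.38%) were within 500 bp of a shared DSXM peak and 194 (24.7%) within 2000 bp. At the other end, 153 members (19.5%, 16.8 to 22.4%) were over 10000 bp from every other peak of either isoform and 10 over 50000 bp. A DSXF peak was nearer than any other DSXM peak for 466 members (59.3%). Of the DSXF-only peaks, 581 of 2028 (28.6%, 26.7 to 30.7%) were nearer to a DSXM peak than to any other DSXF peak. The DSXF list is the longer one, and the part of its length in these shares was not tested.

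**Figure D4:**
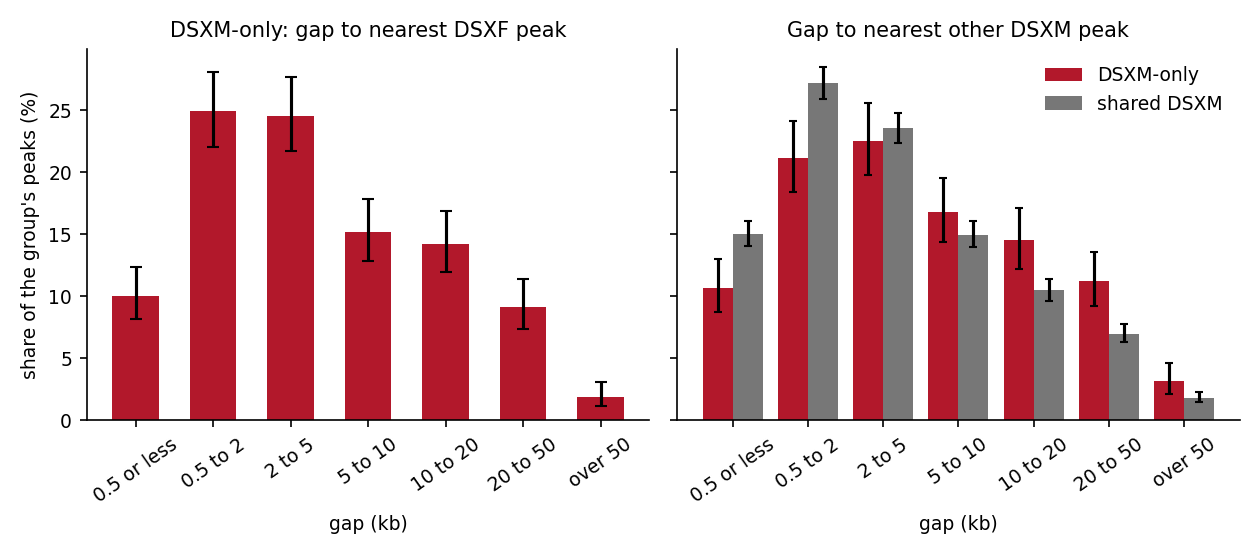
Left, share of the 786 DSXM-only peaks in classes of the gap in kb to the nearest DSXF peak; right, share of DSXM-only (red) and shared (grey) DSXM peaks in classes of the gap to the nearest other DSXM peak, all with 95% Wilson intervals. About equal shares of members lie over 0.5 and up to 2 kb (24.9%) and over 2 and up to 5 kb (24.6%) from a DSXF peak, and members exceed shared peaks in the classes beyond 10 kb of the right panel.

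The most remote member was on 3L from 24529971 to 24531293 (1.32 kb), the last peak of that arm, 506.4 kb from a DSXF peak and 506.3 kb from another DSXM peak. The one on 3R from 8689577 to 8690668 (1.09 kb) was 84.1 kb from a DSXF peak and 87.8 kb from a DSXM peak, so it too stood alone. The next was near the same end of 3L, from 23029808 to 23031489 (1.68 kb), 77.1 kb from a DSXF peak. It was followed by a member on 3L from 2016081 to 2017248 (1.17 kb), 71.0 kb from a DSXF peak. The last of the 5, on 3L from 23022630 to 23023929 (1.30 kb), was 69.96 kb from a DSXF peak but only 5.88 kb from the member at 23029808. All 5 were between 1.09 and 1.68 kb wide, which describes these 5 members only.

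The regions next to members were of all 3 kinds. When peaks of both isoforms were merged into regions, 278 members (35.4%) had a region of both isoforms on either side, 244 (31.0%) one of both isoforms on one side and a DSXF-only one on the other, and 71 (9.03%) DSXF-only regions on both sides. The next region on at least 1 side was another member for 192 members, and on both sides for 16 of these. Of the sides of members, 13.2% were taken by another member, 28.0% by a DSXF-only region and 58.8% by a region of both isoforms. Members made up 10.9% of all 7200 merged regions, DSXF-only regions 28.2% and regions of both isoforms 60.9%, so the neighbours of members were close to the make-up of the whole.

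In the order of the DSXM list alone, 254 members (32.3%, 29.1 to 35.7%) stood in runs of 2 or more consecutive members and 532 (67.7%) stood singly. There were 93 runs of 2, 17 runs of 3, 3 runs of 4 and 1 run of 5. For 154 members (19.6%, 17.0 to 22.5%) the nearest DSXM peak was a member too, against 576 shared DSXM peaks (12.6%, 11.7 to 13.6%) whose nearest was a member. The share of members in the list, 14.7%, lay between these values. The 32.3% in runs was not compared with a random order of the list, which would also hold runs. DSXF-only peaks, 31.2% of the DSXF list, stood in such runs in 59.2% of cases (57.1 to 61.3%). Their nearest DSXF peak was DSXF-only for 36.4% (34.4 to 38.6%), against 26.0% (24.8 to 27.3%) of shared DSXF peaks. The same order was thus found in both lists.

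The run of 5 was on 2L from 9244393 to 9384184, over 139.8 kb. Its members were 994 to 1889 bp wide and 0.242 to 17.5 kb from a DSXF peak, and 2 DSXF-only peaks lay between them. The gaps between its consecutive members were 8.27 to 74.6 kb. Among the runs of 4 or more, the one on 3R from 11928774 to 11951399 was the most compact, with 4 members of 1019 to 2029 bp in 22.6 kb and no DSXF peak between them. In fixed bins of 50 kb, the most members were 4, reached on 3R from 11900001 to 11950000, which holds part of that run, and on 2R from 5750001 to 5800000, each among 6 DSXM peaks. Of the bins with a member, 513 of 638 held 1.

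Chromosome 4 held the other 2 runs of 4, so that 8 of its 16 members stood in such runs. In the first, from 742023 to 926105, 4 members of 1053 to 2794 bp were spread over 184.1 kb. No DSXF peak and no shared DSXM peak lay between them. The member from 742023 to 743170 was 144.0 kb from the next one in the run. This run lay in a stretch free of DSXF peaks from 718912 to 950402 (231.5 kb), so every DSXM peak wholly inside that stretch was a member. The second run, from 979912 to 1035567 over 55.7 kb, had 3 DSXF-only peaks between its members. A pair of its members were 10 bp apart (1032508 to 1034059 and 1034070 to 1035567), and the largest gap between consecutive members was 45.5 kb. Members on 4 were 1053 to 2877 bp wide, with a median of 1660.5 bp (1126 to 2707 bp), and 142 bp to 62.2 kb from a DSXF peak. With 16 members their median width could not be told from that on X or the autosome arms.

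**Figure D5:**
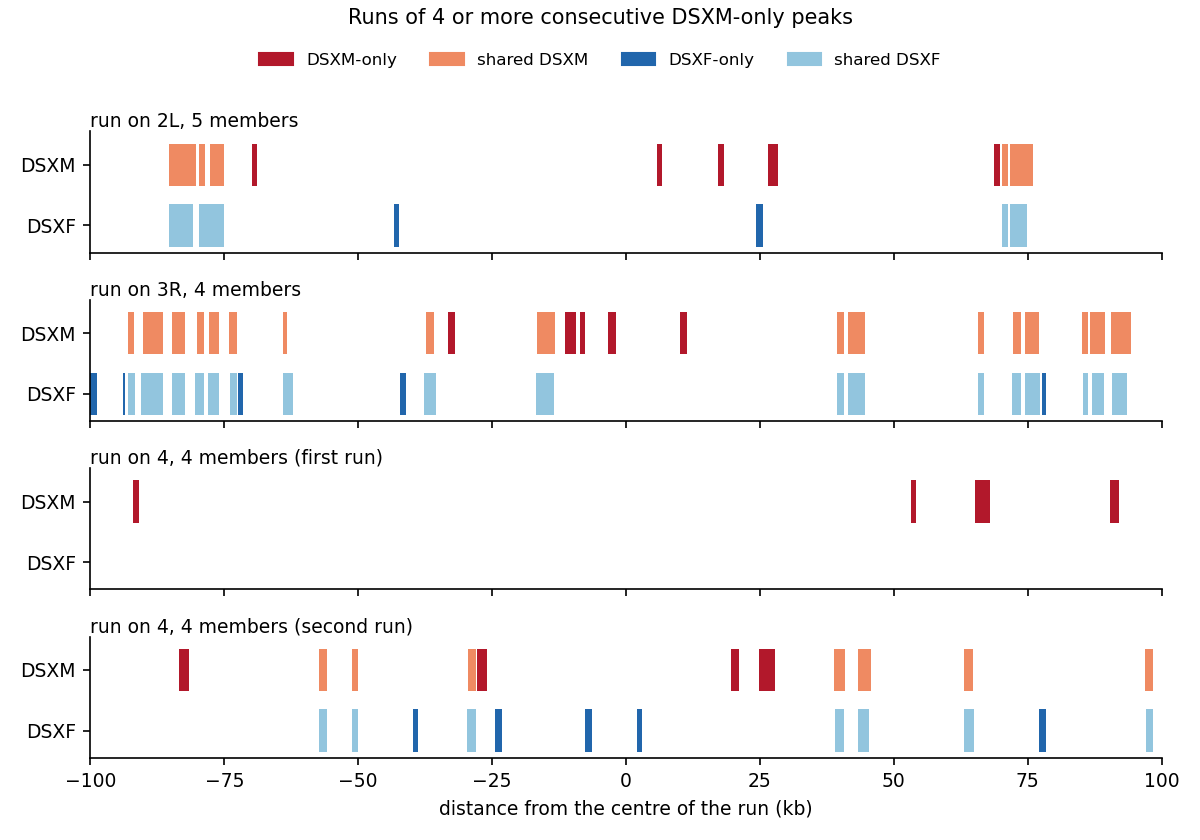
Peaks of DSXM (upper row of each panel) and DSXF (lower row) within 100 kb of the centre of each run of 4 or more consecutive DSXM-only peaks; bars span the peaks in kb from that centre, with members in red, shared DSXM peaks in orange, DSXF-only peaks in dark blue and shared DSXF peaks in light blue. The first run on 4 shows 4 DSXM-only peaks and no DSXF peak, while the run on 3R stands between shared regions.

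Most stretches between consecutive DSXF peaks held a single member where they held any. Of 681 such stretches with a member, 593 held 1, 74 held 2, 12 held 3 and 2 held 4, namely the one on chromosome 4 and one on 3R from 11926636 to 11979519 (52.9 kb). Those with 3 included 298.6 kb on 3L from 22952674 to 23251259, near the centromeric end of that arm, and 160.8 kb on 3L from 1927432 to 2088238. On X, the stretch from 16244783 to 16314526 (69.7 kb) held 3 broad members of 2494 to 3298 bp, one of them among the 5 widest. In bins of 1 Mb the members reached 15 of 67 DSXM peaks on 3L between 18 and 19 Mb (22.4%), followed by 14 of 61 on 2R between 9 and 10 Mb (22.95%) and 14 of 74 on 3R between 11 and 12 Mb (18.9%). All 123 such bins held a DSXM peak, and 120 held at least 1 member. Bins of this size are too wide to show how evenly the members were spread. In bins of 50 kb, 638 of the 1749 bins with a DSXM peak (36.5%) held a member.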

How the data were processed

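Chromatin was fixed with 1% formaldehyde for 10 min and sheared to 200 to 1000 bp, and each immunoprecipitate gave a library from 100 ng of DNA, per the labels' protocols. Bowtie 0.12.7, Picard and the build dm3 are listed in the submitters' processing notes. Replicates were pooled before alignment and peak calling, per the series' design text. Peak caller, threshold and control were not given in the sources used here, and no depth is known, so a deeper sample could yield more peaks. The authors deposited 2 lists, each with sequence name, start and end and no other score. Starts were read as counted from 0. Lists were assigned by the sample title in their names.

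Overlaps, widths and gaps (bases between peaks) were computed in Python 3.11.15 with NumPy 2.4.6, SciPy 1.17.1 and pandas 2.3.3. The member count was checked against bedtools 2.31.1, and the code was tested on simulated lists. Shares have Wilson intervals and medians binomial intervals, both at 95%. No p-value was computed. The members, measures and lists were chosen with earlier results of these data known. The classes of gap and width, the 5 parts of each arm, the merged regions and the stretches free of DSXF were chosen after seeing the values. Peaks named by position were the 5 widest, 5 farthest from and 5 closest to a DSXF peak, the widest per sequence, the 5 shared peaks with the smallest overlap, runs of 4 or more and the fullest bins; the narrowest members, the stretches between DSXF peaks and the DSXF-only neighbours were added after seeing their values. A planned look at sequence, motif and nearby genes needed a dm3 genome and was not run.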

Additional observations from a re-analysis of the deposited data

Results flagged for a closer look

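Outside the 6 sequences used, heterochromatic and unplaced sequences held 23 DSXM peaks, of which 6 met no DSXF peak. They drew attention because they lie in data that the comparisons leave out and number more than the 3 counts that a count of 0 allows. That limit does not show whether 6 of 23 is a high share. On the 6 sequences used, 786 of 5347 DSXM peaks (14.7%) met no DSXF peak, and the difference was not tested. They were 1099 to 2272 bp wide, within the range of the members.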

How the results depend on the processing

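Of 40 values recomputed under other definitions, 24 stayed within the main value's 95% interval (for the number of members, within 1.5 times) and 16 moved. With DSXF peaks within 2000 bp counted as partners, 511 members remained, 15.4% of DSXM peaks on X were members (9.56% overall), and the median gaps were 7138 bp to DSXF and 7231 bp to another DSXM peak. With 500 bp these gaps were 4409 and 4937 bp. With 50% reciprocal overlap required, X had 26.7% (21.7% overall), the gaps were 1442 and 2804 bp, the median width was 1280 bp, and 28.4% of members had a member as nearest DSXM peak. Among DSXM peaks at or above the median width there were 174 members, 11.4% on X (6.51% overall), with a median width of 1899 bp, a gap of 6880.5 bp to another such peak and 12.6% next to a member. The gap rules lengthen the gap to DSXF by construction. The 50% rule shortens it by construction, because some peaks that overlap a DSXF peak then count as members. The width limit by construction raises widths and thins the list in which the gap to another such peak was taken. The gap rules can only lower the number of members and their share on X, and the 50% rule can only raise both. The width limit can only lower the number. For the rest, gaps to other DSXM peaks under the gap and overlap rules included, the cause was not tested. The share on X was above the overall share each time. No replicate could be dropped, because reads were pooled, and the lists carry no score for a stricter threshold. No paired analysis was possible because the lists were made from pooled reads. Read depth, which could shift the number of members, is unknown.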
